A study of Danio rerio with 2 samples.

Results

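The myosin folding machinery of muscle and the SMYD family that *smyd4* belongs to were followed in the hearts of zebrafish embryos. The 8 genes described are *smyd1a*, *smyd1b* and *smyd4*, which encode SET and MYND domain proteins of the lysine methyltransferase family, *unc45a* and *unc45b*, which encode myosin chaperones, and *hsp90aa1.1*, *hsp90aa1.2* and *hsp90ab1*, which encode the cytosolic HSP90 chaperones. They were chosen by name and Ensembl identifier for what they are known to do, at a time when earlier results of these data were known, and make up 8 of the 33396 genes in the deposited table. The symbol table pairs both *smyd1* genes with the one symbol SMYD1, so *smyd1a* (ENSDARG00000009280) and *smyd1b* (ENSDARG00000091253) were kept apart by identifier. *hsp90aa1.1* (ENSDARG00000010478) was found by its own symbol. For *hsp90aa1.2* (ENSDARG00000024746) the symbol table gives only HSP90AA1, so it was assigned by that symbol, without the paralog suffix.

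RNA was sequenced from hearts collected at 72 hours post-fertilization (hpf), with 1 library per group. The control group is labelled wild type, and the other group homozygous for *smyd4* L544Efs*1, a CRISPR/Cas9 frameshift allele made by a short insertion that brings in a premature stop codon. Both carry the strain label Tu. According to the methods the mutants were maternal and zygotic, so that the egg supplied no intact *smyd4* product either, all came from 1 mutant line, and hearts of many embryos were pooled for each library. The methods also name Tg(cmcl2:GFP), with a green fluorescent protein expressed in cardiomyocytes, as the control line. According to the study the mutant line was crossed to this reporter line, and the fluorescence guided the dissection.

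Myosin heavy chains do not fold on their own. In striated muscle the nascent myosin head is held by UNC45B, which binds HSP90 through a further domain, and SMYD1 joins these chaperones and the myosin at the thick filament. In zebrafish skeletal muscle, thick filaments need *smyd1b*, *unc45b* and *hsp90aa1.1*, whereas *unc45a* serves cells in general and *hsp90ab1* encodes the constitutive HSP90. Loss of one of these muscle chaperones is known in zebrafish skeletal muscle to raise the transcripts of others, which is background to the comparison and not a result of these libraries.

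The allele was generated at a single site in *smyd4*, and its protospacer is shown because the labels of the libraries rest on the cut made there. The sequence is the designed target from the study's oligonucleotide list, written 5′ to 3′, with the 12 bases next to the protospacer adjacent motif (the seed that Cas9 pairs first) in capitals. No position is given for it, as no genome was used here.
*smyd4* target site: ggagcgtcAGCGCCTCCTGC

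The targeted gene was examined first. *smyd4* (ENSDARG00000060983) stood at the same 2.42 FPKM in both libraries, with 111 reads in control and 106 in the one labelled mutant. FPKM scales the fragments of a gene by its length and by the total of the library, and the reads were worked out from these values. The ratio of the library labelled *smyd4* mutant to control was 1.00, with an exact 95% interval from 0.760 to 1.32. Under each of the other scalings used below the ratio was lower. It was 0.700 with TMM, 0.698 with the median of ratios, 0.612 with the upper quartile and 0.281 with cardiomyocyte markers. The study reports loss of the *smyd4* transcript in mutant embryos by quantitative RT-PCR and in situ hybridization. In the deposited values the targeted gene was thus not lower and gave no support to the label. Whether its ratio was below 1 depends on the scaling. The phrase library labelled *smyd4* mutant is therefore used throughout, and all directions depend on that label. All intervals given here cover counting error only. With 1 library per group there was no replicate check, so the genotypes were not tested against each other.

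The derived totals were 18840114 reads for control and 17960132 reads for the library labelled *smyd4* mutant, so depth was similar. Of the cardiomyocyte markers, *myl7*, the cardiac regulatory light chain, was at 642 FPKM in control hearts and 2977 FPKM in the library labelled *smyd4* mutant, and the list of 12 genes summed to 2481 and 6290 FPKM, with 6 of 10 tested genes higher and 0 lower. The 1 marker at 0, a second *tnni1* identifier in control, was at 0.102 FPKM in the other library. Both libraries also held much RNA of other tissues: 12 liver and yolk genes summed to 34235 and 7622 FPKM, 8 epidermal genes to 15601 and 22596 FPKM, 18 skeletal muscle genes to 8214 and 4427 FPKM, 10 neural genes to 449 and 168 FPKM, 7 erythrocyte genes to 3182 and 2450 FPKM, and 7 endothelial genes to 125 and 168 FPKM. The erythrocyte sum was mostly *hbae3*, at 2958 and 2100 FPKM, while 4 of the 7 tested erythrocyte genes were higher and 0 lower. Within the epidermal sum the keratin gene *krt4* was at 8063 and 16552 FPKM, but *krt5* at 4915 and 2166 FPKM. Of the 8 tested epidermal genes 4 were higher and 1 lower. The lens genes differed most, with sums of 1.34 and 82.2 FPKM over 12 genes, 5 of them at 0 in control, and 6 of 6 tested genes higher. Over all tested genes 33.3% were higher and 11.6% lower, by the rule given below. In both libraries *apoa2*, a liver and yolk lipoprotein gene, and *krt4*, an epidermal keratin, were above *myl7*. These differences in tissue content move with every result below, and their part in the results was not tested. In such bulk samples, fewer cells of a type and less RNA per cell cannot be told apart.

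Genes that reached 1 FPKM in at least 1 of the libraries were tested. A gene counted as higher or lower when the control value of log2(FPKM + 1), taken from that of the other library, left a difference above 1 or below -1. This scale understates the difference of genes with low values. All 8 genes were tested. *unc45b* and *hsp90aa1.1* were higher in the library labelled *smyd4* mutant, *smyd1a* was lower, and the other 5 were neither. Among all 17800 tested genes, 33.3% passed as higher and 11.6% as lower, so 2 of 8 higher and 1 of 8 lower are close to the shares over all genes. In the *smyd1*, *unc45* and *hsp90aa1* pairs, 1 copy differed by more than 1 in the deposited values while the other did not. The share of all paralog pairs that are split in this way was not computed, so the splits are given as description only. These calls depend on the scaling: both SMYD1 genes were lower under upper-quartile and cardiomyocyte-marker scaling. Under cardiomyocyte-marker scaling *smyd4*, *unc45a*, *hsp90aa1.2* and *hsp90ab1* also passed as lower, while *unc45b* and *hsp90aa1.1* did not pass the limit. Over all genes 50.0% were lower and 3.36% higher under that scaling.

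*smyd1a*, 1 of the zebrafish copies of the muscle methyltransferase SMYD1, was at 34.5 FPKM in control hearts and 6.99 FPKM in the library labelled *smyd4* mutant, from 947 and 183 reads. The ratio was 0.203 (95% interval 0.172 to 0.238), which is a level 4.93-fold higher in control, and the difference was -2.15. Only 1.75% of the tested genes had a smaller value of this difference. *smyd1b*, the copy needed for thick filaments of zebrafish skeletal muscle, was at 80.5 FPKM in control hearts and 57.6 FPKM in the library labelled *smyd4* mutant. Its ratio was 0.715 (95% interval 0.633 to 0.807) and its difference -0.48, so it was lower by less than the limit. The 666 and 454 reads behind it are the smallest whole numbers that give its values, at a gene length of 439 bases, and the true numbers may be a multiple of them. Both SMYD1 genes were therefore lower in the deposited values, *smyd1a* by more than *smyd1b*.

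*unc45b* (ENSDARG00000008433), the striated muscle myosin chaperone, was at 10.2 FPKM in control hearts and 59.96 FPKM in the library labelled *smyd4* mutant, from 419 and 2338 reads. The ratio was 5.85 (95% interval 5.27 to 6.51) and the difference 2.44, and 3.54% of the tested genes had a larger one. *unc45a* (ENSDARG00000103643), the copy used by cells in general, was at 3.75 FPKM in control hearts and 3.59 FPKM in the library labelled *smyd4* mutant, from 150 and 137 reads. Its ratio was 0.958, and the interval from 0.754 to 1.22 included 1. The muscle copy thus stood 5.85-fold higher in one library than in the other, while the general copy was at nearly the same level in both.

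*hsp90aa1.1*, the HSP90 gene that zebrafish skeletal muscle uses for myosin, was at 18.9 FPKM in control hearts and 133 FPKM in the library labelled *smyd4* mutant, from 618 and 4133 reads. The ratio was 7.02 (95% interval 6.45 to 7.65) and the difference 2.75, the largest of the 8 genes, with 1.65% of the tested genes above it. *hsp90aa1.2*, the copy that muscle does without, was at 18.4 FPKM and 17.6 FPKM, from 695 and 633 reads. Its ratio was 0.955 (95% interval 0.857 to 1.07). The pair are direct neighbours in the RefSeq annotation, with 0 genes between them, and they started from nearly the same level in control. Reads of such close copies could have been divided between them, as the counting rule is not given in the sources used here, and the same holds for *smyd1a* and *smyd1b*.

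*hsp90ab1* (ENSDARG00000029150), the constitutive cytosolic HSP90, was by far the most abundant of the 8 genes, at 885 FPKM in control hearts and 817 FPKM in the library labelled *smyd4* mutant. Its 25239 and 22207 reads gave the narrowest interval, 0.906 to 0.940 around a ratio of 0.923. Counted from the most abundant gene down, *hsp90ab1* ranked 135th in control and 106th in the library labelled *smyd4* mutant. *hsp90aa1.1* went from rank 3553 to rank 893 and *unc45b* from 5470 to 1953, whereas *smyd1a* went from 2291 to 8818 and *smyd1b* from 1123 to 2037. In control the order of levels, which are per length, was *hsp90ab1*, *smyd1b*, *smyd1a*, *hsp90aa1.1*, *hsp90aa1.2*, *unc45b*, *unc45a* and *smyd4*, with the intervals of *hsp90aa1.1* and *hsp90aa1.2* overlapping. In the library labelled *smyd4* mutant it was *hsp90ab1*, *hsp90aa1.1*, *unc45b*, *smyd1b*, *hsp90aa1.2*, *smyd1a*, *unc45a* and *smyd4*, with overlapping intervals for *unc45b* and *smyd1b*. The lowest places were the same in both libraries.

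**Figure D1:**
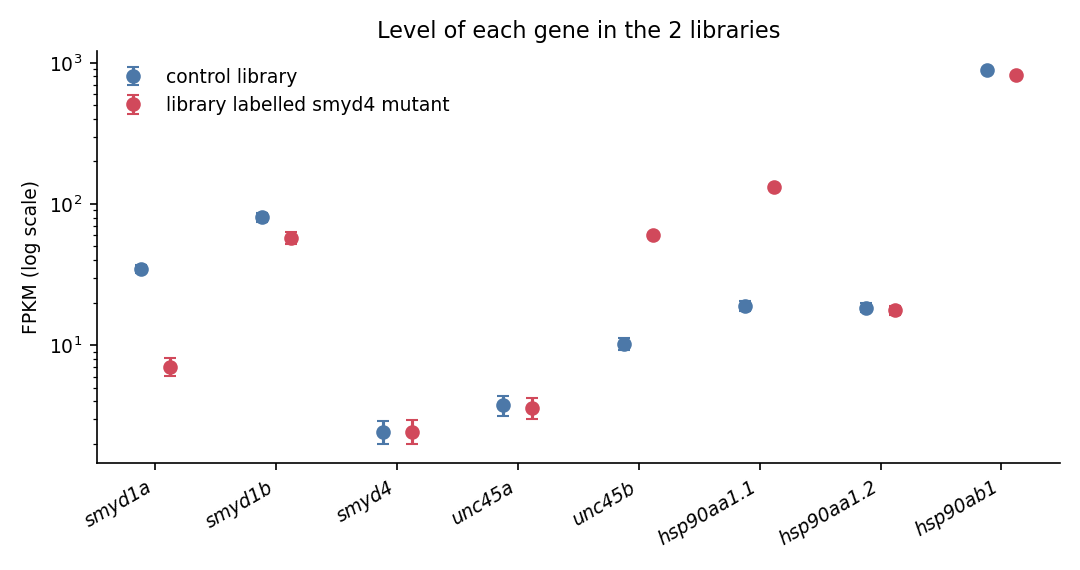
Level of the 8 genes in FPKM (log scale) in the control library (blue) and the library labelled *smyd4* mutant (red), with bars for the 95% counting interval of each library. *hsp90aa1.1* and *unc45b* lie far higher in red (133 against 18.9 FPKM and 59.96 against 10.2 FPKM), *smyd1a* lies far lower (6.99 against 34.5 FPKM), and *smyd4*, *unc45a*, *hsp90aa1.2* and *hsp90ab1* lie close together.

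The FPKM values carry no scaling between libraries beyond the totals, and the median difference over all tested genes was 0.49, so genes passed as higher more often than as lower. A TMM scaling (trimmed mean of M values) took this median to 0.04, and with it 21.2% of genes were higher and 19.3% lower. The differences under TMM were 1.95 for *unc45b*, 2.24 for *hsp90aa1.1*, -2.63 for *smyd1a*, -0.99 for *smyd1b*, -0.63 for *hsp90ab1*, -0.55 for *hsp90aa1.2*, -0.45 for *unc45a* and -0.36 for *smyd4*. The same 2 genes were higher and the same 1 lower, and *smyd1b* came to just inside the limit. Under upper-quartile scaling *smyd1b* passed it, at -1.18, and 2 of the 8 genes were lower. The median over all tested genes was then -0.13, and the share of all genes that were lower was not computed for this scaling.

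A different picture came from setting the median difference of the cardiomyocyte markers to 0. The 10 tested markers were split in their ratio of the library labelled *smyd4* mutant to control. It was 0.880 for *nppb* and 0.924 for *myh6*, but 4.64 for *myl7* and 10.8 for *actn2b*. This scale is thus 1 possible cardiomyocyte reference, and others are given below. On this scale *unc45b* was at 0.69 and *hsp90aa1.1* at 0.96, both under the limit of 1, so 0 of the 8 genes were higher, beside 3.36% of all genes. The other 6 genes were all lower, at -3.81 for *smyd1a*, -2.28 for *smyd1b*, -1.95 for *hsp90ab1*, -1.79 for *hsp90aa1.2*, -1.48 for *unc45a* and -1.29 for *smyd4*, beside 50.0% of all genes. Only *unc45b* and *hsp90aa1.1* thus kept a positive difference under every scaling, and *smyd1a* was below -1 under every scaling.

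**Figure D2:**
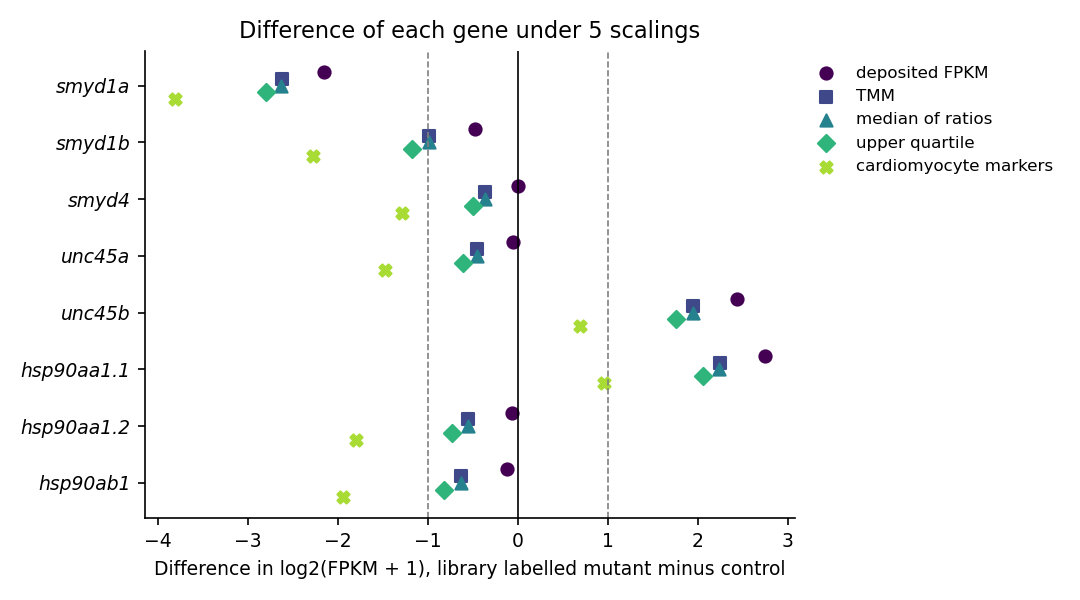
Difference in log2(FPKM + 1), library labelled mutant minus control, of each gene under 5 scalings, with dashed lines at -1 and 1. The points of *unc45b* and *hsp90aa1.1* lie above 0 under all 5, at 0.69 and 0.96 under cardiomyocyte-marker scaling, and those of *smyd1a* lie below -1 under all 5, from -2.15 to -3.81.

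The size of the contrast between paralogs does not depend on any scaling, since a ratio within a library cancels it. Per 1 transcript of *smyd1a* there were 2.34 of *smyd1b* in control and 8.24 in the library labelled *smyd4* mutant, a 3.53-fold higher ratio (95% interval 2.88 to 4.33). The ratio of *unc45b* to *unc45a* was 2.73 in control and 16.7 in the library labelled *smyd4* mutant, 6.11-fold higher (95% interval 4.70 to 7.94). *hsp90aa1.1* and *hsp90aa1.2* were nearly level in control, at a ratio of 1.03, and stood at 7.53 in the library labelled *smyd4* mutant, 7.34-fold higher (95% interval 6.39 to 8.44). *hsp90ab1* outnumbered the sum of these copies 23.7 to 1 in control and 5.44 to 1 in the library labelled *smyd4* mutant, a ratio 4.36-fold higher in control (approximate 95% interval 4.09 to 4.65). Each of these 4 ratios also follows the mixture of tissues where paralogs are used by different cells, and a change within cardiomyocytes and a change of tissue content cannot be told apart from them.

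The families were also summed. Cytosolic HSP90 summed to 923 FPKM in control hearts and 968 FPKM in the library labelled *smyd4* mutant, a ratio of 1.05, while the share of *hsp90aa1.1* in it was 2.05% and 13.7%. The share of *hsp90ab1* was 96.0% and 84.5%, and that of *hsp90aa1.2* was 1.998% and 1.82%. The 7 SMYD genes summed to 145 and 151 FPKM, a ratio of 1.04, yet *smyd1a* and *smyd1b* together made up 79.2% of the sum in control and 42.8% in the library labelled *smyd4* mutant. UNC45 had a sum of 14.0 and 63.6 FPKM, 4.54-fold higher in the library labelled *smyd4* mutant, of which *unc45b* took 73.2% and 94.4%. The shares do not depend on the scaling, but the ratios of the sums do. Under TMM they were 0.733 for cytosolic HSP90, 0.727 for SMYD and 3.18 for UNC45, and under cardiomyocyte-marker scaling 0.294, 0.292 and 1.27.

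The shares of the 4 other SMYD genes in the SMYD sum were larger in the library labelled *smyd4* mutant, most of all that of *smyd2*. *smyd2* (ENSDARG00000055151), whose protein in zebrafish muscle binds HSP90 and titin, was at 12.8 FPKM in control hearts and 53.9 FPKM in the library labelled *smyd4* mutant, 4.22-fold higher, and its share went from 8.78% to 35.7%. *smyd5*, a more distant member, was at 7.58 and 17.1 FPKM, with a difference of 1.08. *smyd2b* was at 1.96 and 4.77 FPKM, with a difference of 0.96, and *smyd3*, which in human cells methylates a signalling kinase, was at 5.51 and 8.24 FPKM, with a difference of 0.51. Of these 4 genes 2 thus passed as higher and 0 as lower, beside 33.3% and 11.6% of all genes. Their median was 1.02 beside 0.49 for all genes, but under TMM only *smyd2* was higher, and under cardiomyocyte-marker scaling 0 were higher, 1 (*smyd3*) was lower and the median was -0.51. *smyd4* itself supplied 1.66% and 1.60% of the SMYD sum.

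**Figure D3:**
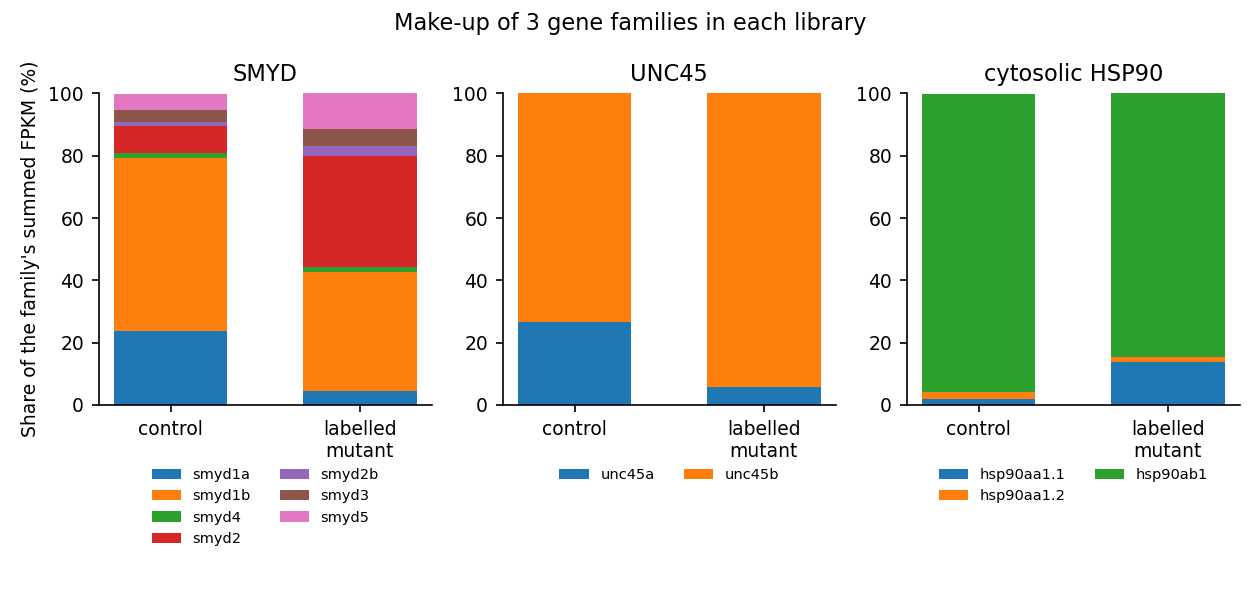
Share of each gene in the summed FPKM (%) of the SMYD, UNC45 and cytosolic HSP90 families in each library, as stacked bars from 0 to 100. *smyd1a* and *smyd1b* together fill 79.2% of the SMYD bar in control and 42.8% in the library labelled *smyd4* mutant, and *hsp90aa1.1* fills 2.05% and 13.7% of the HSP90 bar.

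The chaperones were then set against their client in the same library, which also needs no scaling. The muscle myosin heavy chain list summed to 307 FPKM in control hearts and 627 FPKM in the library labelled *smyd4* mutant. Of its 18 symbols, 5 matched no identifier by name, among them the ventricular myosin *vmhc*, and were not added to this sum by name. Whether any of them is in it under another symbol was not checked. Per 100 FPKM of it, *unc45b* was at 3.34 and 9.56, 2.86-fold higher in the library labelled *smyd4* mutant, and *hsp90aa1.1* at 6.16 and 21.2, 3.43-fold higher. *smyd1b* was at 26.2 and 9.18 on this measure, 2.86-fold higher in control, and *smyd1a* at 11.2 and 1.11, 10.1-fold higher in control. The other chaperone genes were also lower relative to myosin: *hsp90ab1* was at 288 and 130 per 100 FPKM, *hsp90aa1.2* at 6.01 and 2.81, and *unc45a* at 1.22 and 0.572. Of the 5 chaperone genes, *unc45b* and *hsp90aa1.1* were thus higher per matched myosin transcript in the library labelled *smyd4* mutant. The other 3 were higher in control.

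Per 100 FPKM of *myl7*, *unc45b* was at 1.60 and 2.01, 1.26-fold higher in the library labelled *smyd4* mutant, and *hsp90aa1.1* at 2.95 and 4.46, 1.51-fold higher. Per 100 FPKM of the summed cardiomyocyte markers the excess was larger, 2.31-fold for *unc45b* and 2.77-fold for *hsp90aa1.1*, so its size depends on the cardiomyocyte reference. The markers *cmlc1*, at 1296 and 1377 FPKM, *myh6*, at a ratio of 0.924, and *nppb*, at 0.880, were not taken as references. They differed less between the libraries than *myl7* or the summed markers, so both excesses would be larger against them. Of the 10 tested markers 6 were higher and 0 lower. Against *myl7*, *smyd1b* was 6.48-fold and *smyd1a* 22.9-fold higher in control. Per 100 FPKM of the skeletal muscle markers, *unc45b* was at 0.125 and 1.35, 10.9-fold higher in the library labelled *smyd4* mutant, and *smyd1b* at 0.980 and 1.301, a 1.33-fold excess in the other direction from its deposited values. Much of this skeletal sum came from the creatine kinase genes *ckmb*, at 2507 and 1309 FPKM, and *ckma*, at 2075 and 628 FPKM. The median difference of the skeletal list was 0.39, with 7 genes higher and 4 lower, so the sum does not stand for the list as a whole. The reference chosen thus sets the direction of *smyd1b*, whereas *smyd1a* was higher in control against every reference used. *unc45a*, set against the non-muscle and smooth muscle myosin heavy chains (157 and 146 FPKM in sum), was at 2.38 and 2.47 per 100 FPKM, a ratio of 1.03.

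The remaining members of the HSP90 family act outside the cytosol. *hsp90b1*, the HSP90 of the endoplasmic reticulum, was at 46.6 FPKM in control hearts and 425 FPKM in the library labelled *smyd4* mutant, with a difference of 3.16. *trap1*, the mitochondrial HSP90, was at 9.16 and 59.0 FPKM, with a difference of 2.56. Both differences were positive under TMM, upper-quartile and cardiomyocyte-marker scaling, with medians of 2.36 under TMM and 1.08 under cardiomyocyte-marker scaling. The 3 HSP90 genes of 3 compartments *hsp90aa1.1*, *hsp90b1* and *trap1* were thus all higher in the library labelled *smyd4* mutant, and *hsp90ab1* and *hsp90aa1.2* were not.

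HSP90 works with co-chaperones that load clients, hold the closed state or set the rate of ATP hydrolysis. Of 26 tested co-chaperone genes 21 were higher in the library labelled *smyd4* mutant and 1 was lower, with a median difference of 1.63 beside 0.49 for all genes. Under TMM 15 were higher and 2 lower, and the median was 1.13. Under cardiomyocyte-marker scaling 0 were higher, 4 were lower and the median was -0.08. Over all genes 33.3% were higher and 11.6% lower, 21.2% and 19.3% under TMM, and 3.36% and 50.0% under cardiomyocyte-marker scaling. The counts of the lists below stand beside the same shares. *ptges3* (ENSDARG00000089626), which encodes p23, the co-chaperone of the closed HSP90 state, was at 41.9 FPKM in control hearts and 256 FPKM in the library labelled *smyd4* mutant, with a difference of 2.58. *ppid*, a cyclophilin of the HSP90 complex, was at 16.4 and 97.1 FPKM, 5.93-fold higher. *ahsa1* (ENSDARG00000028664), the activator of the HSP90 ATPase, was at 2.92 and 20.4 FPKM from 17 and 113 reads, with a difference of 2.45. A second, more abundant *ahsa1* identifier (ENSDARG00000100317) was at 13.7 and 39.2 FPKM, with a smaller difference of 1.45.

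HSP70 passes unfolded clients on to HSP90. Of 21 tested genes of the cytosolic HSP70 system 13 were higher and 0 lower, beside 33.3% and 11.6% of all genes. The median was 1.40 beside 0.49. Under TMM 6 were higher and 2 lower (median 0.93), and under cardiomyocyte-marker scaling 0 were higher, 4 were lower and the median was -0.37. The largest differences were those of 3 genes for J-domain proteins, which hand clients to HSP70. *dnaja1* was at 6.92 FPKM in control hearts and 39.3 FPKM in the library labelled *smyd4* mutant, *dnajb1b* at 2.13 and 12.3 FPKM, and *dnajb1a* at 1.89 and 10.3 FPKM, with differences of 2.35, 2.09 and 1.97. Of 4 tested genes for heat shock factors and their binding proteins, 0 were higher and 2 were lower, with a median of -0.65 that stayed negative under TMM, upper-quartile and cardiomyocyte-marker scaling. The lower ones encode binding proteins and not factors. They were *hsbp1* (ENSDARG00000069425), a small binding partner of heat shock factor, at 43.2 and 14.6 FPKM, and its paralog *hsbp1b*, at 192 and 93.5 FPKM, with differences of -1.50 and -1.03. The factors *hsf1*, at 5.74 and 7.86 FPKM, and *hsf2*, at 11.8 and 9.51 FPKM, were neither, with differences of 0.39 and -0.28, and that of *hsf1* was negative under TMM at -0.06. Both were named after their values were seen.

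Of 12 tested genes for partners in myosin assembly and turnover 8 were higher and 1 lower, beside 33.3% and 11.6% of all genes. The median was 1.24 beside 0.49. Under TMM 4 were higher and 2 lower. Under cardiomyocyte-marker scaling 1 was higher and 4 were lower, with a median of -0.56. The leading genes were those of the muscle ring finger ubiquitin ligases, which sit on the sarcomere. *trim55a* was at 2.27 FPKM in control hearts and 20.6 FPKM in the library labelled *smyd4* mutant, *trim63a* at 14.0 and 84.0 FPKM, and *trim55* (ENSDARG00000058158) at 3.68 and 15.8 FPKM, with differences of 2.72, 2.51 and 1.85.

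Myosin heavy chains are the clients of these chaperones. Of 12 tested muscle myosin heavy chain genes 6 were higher and 0 lower, beside 33.3% and 11.6% of all genes. The median was 0.99 beside 0.49. Under TMM 4 were higher and 0 lower, beside 21.2% and 19.3% of all genes. Under cardiomyocyte-marker scaling 1 of 11 was higher and 3 were lower, beside 3.36% and 50.0%, with a median of -0.78. *myhz2*, a fast skeletal myosin, was at 17.0 and 118 FPKM, *myhz1.3* at 3.11 and 19.9 FPKM, and *myh7*, in mammals the slow and cardiac type, at 179 and 365 FPKM, with differences of 2.73, 2.34 and 1.02. *myh6*, the atrial myosin, was at 30.7 and 28.4 FPKM. Copies of the fast myosin genes are near-identical, so the division of reads among them is uncertain. The other thick filament proteins had 0 of 12 tested genes higher and 4 lower, with a median of -0.18 that was also negative under upper-quartile scaling, TMM (0 of 11 higher and 6 lower) and cardiomyocyte-marker scaling (9 of 12 lower). *mybphb* and *mybpha*, which encode myosin binding proteins, were at 729 and 302 FPKM and at 10.7 and 3.99 FPKM, with differences of -1.27 and -1.23. In the deposited values 6 of the 12 had a difference above 0. Among them was *mybpc3*, named after its values were seen, at 29.2 and 53.4 FPKM, with a difference of 0.85. Of 5 tested non-muscle and smooth muscle myosin heavy chain genes, the clients of *unc45a*, 0 were higher and 0 lower, and the median was -0.16 (0 higher and 1 lower under TMM, and 5 of 5 lower under cardiomyocyte-marker scaling, with a median of -1.78).

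**Figure D4:**
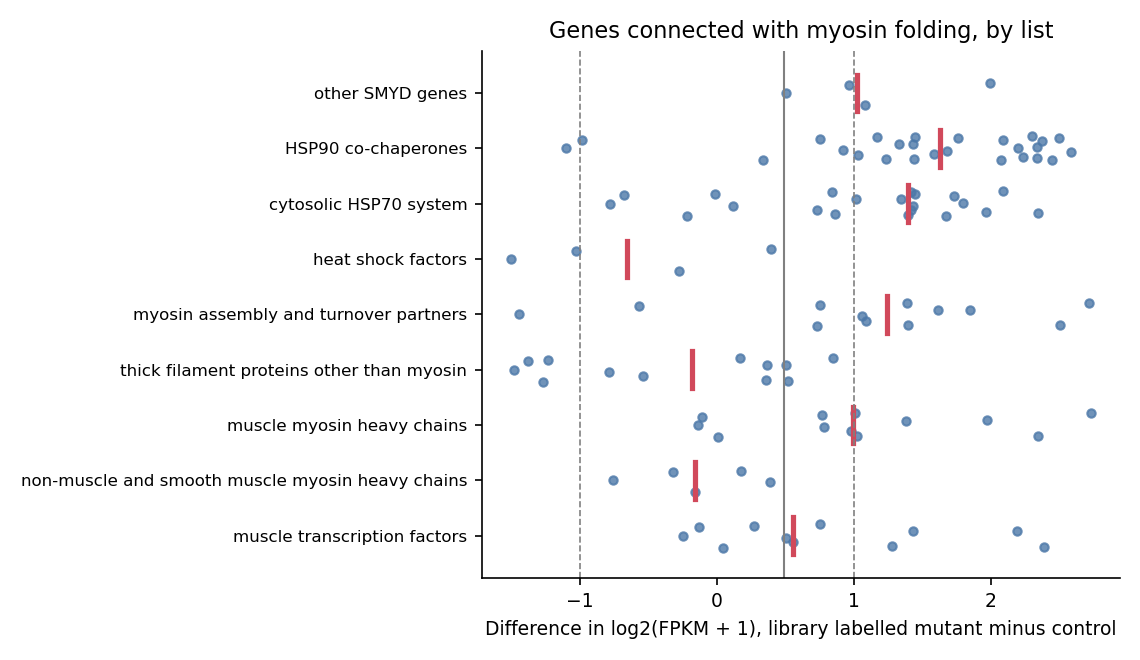
Difference in log2(FPKM + 1), library labelled mutant minus control, of each tested gene (points) in 9 lists connected with myosin folding, with the median of each list in red. The grey line is the median of all genes (0.49) and the dashed lines are -1 and 1; the co-chaperone list has its median at 1.63 and the heat shock factor list at -0.65.

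Muscle transcription factors, which include known regulators of the muscle copies above, had 4 of 11 tested genes higher and 0 lower, with a median of 0.55, close to that of all genes (3 higher and 0 lower under TMM, and 0 higher and 5 lower, with a median of -1.02, under cardiomyocyte-marker scaling). *hand2*, a heart field factor, was at 50.4 FPKM in control hearts and 268 FPKM in the library labelled *smyd4* mutant. *myod1* and *myog*, the skeletal muscle determination and differentiation factors, were at 9.05 and 44.9 FPKM and at 6.42 and 19.0 FPKM. These skeletal factors and *myhz2* were higher in the library labelled *smyd4* mutant, while *ckma*, the muscle creatine kinase, was at 2075 and 628 FPKM, so the skeletal markers did not move as 1 block. Of the 18 tested, 7 were higher and 4 lower, but under TMM 5 were higher and 6 lower, and under cardiomyocyte-marker scaling 1 was higher and 10 of 16 were lower. Whether *unc45b*, *hsp90aa1.1* or the SMYD1 pair came from heart or from skeletal muscle in these libraries was not tested.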

How the data were processed

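The libraries were made from zebrafish hearts (72 hpf), 1 library per group. The authors deposited 1 table of FPKM values (fragments scaled by gene length and library total, recognized from the values). The submitters' processing notes name Bowtie2 2.0.6 and TopHat2 2.0.9; genome build, annotation and counting rule are not given in the sources used here. Symbols matched 26433 of 33396 identifiers. The methods name DESeq2, which was not run, as there are no counts or replicates.

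log2(FPKM + 1) was subtracted between the libraries, for genes that reached 1 FPKM in at least 1 of them. Library totals and the smallest whole reads that give each gene's values were derived from ratios of FPKM values. They gave 91.2% and 90.4% of the totals as reads, a whole length for 99.5% of genes, the Clopper-Pearson intervals and TMM scaling (30% and 5% trims). The derived totals are the smallest multiple that is not below the summed reads, and the true totals may be a larger multiple. The procedure was run on simulated data whose totals were built to meet this rule, so the simulation could not check the totals. Ratios of 2 genes have an exact conditional interval, and the interval around the summed pair is an approximation. The alternatives were other scalings, a pseudocount of 0.1, other filters and a threshold of 2. Protein and promoter features were not analysed here.

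The 8 genes, the 10 pathway lists and the 8 marker lists were chosen with earlier results of these data known. Named are the 8 genes, the other SMYD and HSP90 genes, muscle references, and in each other list up to 3 of the most different genes past the threshold that reached 10 FPKM; any other gene is said to be chosen later or stands as a tissue marker. Python 3.11.15, numpy 2.4.6, pandas 2.3.3, scipy 1.17.1 and matplotlib 3.10.9 were used.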

Additional observations from a re-analysis of the deposited data

How the results depend on the processing

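The number of the 8 genes counted as higher (2, *unc45b* and *hsp90aa1.1*) was the same genes under scaling by TMM, by the upper quartile and by the median of ratios, a pseudocount of 0.1, either filter and a threshold of 2, and was 0 under cardiomyocyte-marker scaling. The number counted as lower (1, *smyd1a*) was 2 under upper-quartile scaling (*smyd1a* and *smyd1b*) and 6 under cardiomyocyte-marker scaling (all but *unc45b* and *hsp90aa1.1*). Shares over all genes were computed only for the deposited values, TMM and cardiomyocyte-marker scaling, so the counts under the other settings have none beside them. Of 40 single-gene differences in log2(FPKM + 1) under other scalings or the pseudocount, 10 moved by less than counting error and 30 by more, and 0 of those past the limit changed direction. The 10 include *smyd4* under TMM and the median of ratios. Its FPKM ratios there, 0.700 and 0.698, lie outside its interval of 0.760 to 1.32, as log2(FPKM + 1) understates differences at low values. The paralog ratios stayed within their intervals with a pseudocount of 1. Reads in place of FPKM could not alter the change in a ratio of 2 genes, as lengths and totals cancel in it. For *hsp90ab1* against the summed pair, reads kept the ratio within its approximate interval. No paired analysis was possible because each group had 1 library, which also leaves no replicate to leave out. Depth limits *smyd4* and *unc45a* most, with 106 to 150 reads a library.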

Other observations

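The genes in the next sentences were chosen after their values were seen, and carry no test. Among the HSP90 co-chaperones, the 1 lower gene was *nudcd3*, at 235 FPKM in control hearts and 109 FPKM in the library labelled *smyd4* mutant, and *cdc37*, which brings kinases to HSP90, was at 163 and 81.9 FPKM, with a difference of -0.99. Both ran against *stip1*, the adaptor between HSP70 and HSP90, which was at 79.4 and 271 FPKM, with a difference of 1.76.

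*hspa8* (ENSDARG00000068992), the constitutive HSP70, was the most abundant gene of the HSP70 list, at 1672 FPKM in control hearts and 4547 FPKM in the library labelled *smyd4* mutant. The HSP70 genes best known for their response to heat were low in both libraries. *hsp70l* was at 0.715 and 0.339 FPKM from 31 and 14 reads, *hsp70.3* at 1.87 and 1.46 FPKM from 83 and 62 reads, *hsp70.1* at 0.200 and 0.593 FPKM from 6 and 17 reads, and *hspa1b* at 0.0263 and 0.524 FPKM from 1 and 19 reads. The ratio of the library labelled *smyd4* mutant to control was below 1 for *hsp70l* and *hsp70.3* and above 1 for *hsp70.1* and *hspa1b*. They are close copies of each other, and the division of reads among them is uncertain.

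*btf3* and *naca* encode the partners of the nascent chain complex, which meets new proteins at the ribosome. *btf3* was at 1364 and 501 FPKM, with a difference of -1.44, and *naca* at 69.8 and 184 FPKM, with a difference of 1.39, so partners of 1 complex stood on opposite sides of the limit. The muscle form of the *naca* transcript was not separated from the general form here.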
